A study of Xenopus laevis with 5 samples.

Results

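Ribosomes are assembled in the nucleolus. RNA polymerase I transcribes the long precursor of ribosomal RNA there, small nucleolar ribonucleoproteins (snoRNPs) guide its methylation and pseudouridylation, and the small-subunit processome and the large-subunit assembly factors fold, cut and dress it with ribosomal proteins. These genes are known for high activity in growing and dividing cells, and the early frog embryo carries a large maternal store of ribosomes. The genes described here are the nucleolar ribosome biogenesis genes and RNA polymerase I subunits on the array, chosen by gene symbol (nop, utp, rrp and nol families, polr1 subunits, and named snoRNP proteins, helicases and assembly factors). The rule matched 74 probe sets of 57 genes, out of 15491 probe sets other than controls and 7531 genes with a single symbol. Each gene is represented by its brightest probe set. The genome of Xenopus laevis arose by joining a pair of genomes, so many genes exist as homeologs, named L and S. Homeologs are separate genes here, 35 L and 22 S under 48 names, but their RNAs may hybridise to each other's probes.

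The study injected Xenopus laevis embryos at the 2-cell stage with synthetic RNA, explanted their prospective ectoderm (animal caps) at stage 9 to 10, kept it on fibronectin and took total RNA at stage 22. In 3 samples the RNA encoded ICD, and in 2 samples ICD together with FoxJ1. All 5 samples thus received ICD, and no sample without it was analysed here. ICD commonly denotes the intracellular domain of Notch, which the labels do not spell out, and FoxJ1 is a forkhead transcription factor of motile cilia. The comparison therefore shows what differs when FoxJ1 is added to ICD, and the series title puts the interest in cilia genes. The labels do not state the origin of the replicates (clutch, batch or pool). P-values therefore reflect the spread among these 5 samples alone, which may be technical.

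Signals are MAS5 intensities on a linear scale, 1 array per sample, and the array median lay between 62.1 and 73.5. Precision is limited by having 5 arrays. Epidermal genes were present, and 11 of them summed to 34661 to 43680 with ICD and 30638 and 36918 with FoxJ1. Of the 11, 4 fell and 0 rose, where 2.99% of all probe sets tested were called lower and 4.48% higher. Those that fell were krt19.L (-1.96), krt19.S (-1.02), epcam.L (-0.71) and tp63.L (-1.81). Tp63.L went from 145.5, 150.6 and 151.3 to 26.3 and 36.2. Of the 11 differences, 6 were negative and 5 positive. Grhl3.L (0.82) and grhl1.L (0.50) were higher at an unadjusted p under 0.05 (limma), as were 12.3% of all probe sets. Much of the sum came from itln1.L (0.10), krt8.1.S (0.40) and krt12.5.S (0.26), which did not pass the test (limma). All 5 multiciliated cell genes measured (tekt1, rsph1 and dnai1, L copies, and both tekt2 copies) rose, from summed signals of 143 to 741 with ICD to 8163 and 9930 with FoxJ1. Of 9 mesoderm and muscle genes, 3 were at background on every array, and their summed signal was 613 to 750 with ICD and 394 and 433 with FoxJ1. Most of it came from ckm.L, muscle creatine kinase, which fell by 1.29 (limma adjusted p = 0.0147), from 493.7, 499.6 and 634.3 to 207.4 and 213.4, while myod1.L, the muscle regulator, rose by 1.21 (limma adjusted p = 0.0402). Of 8 blood and endoderm genes 4 were at background on every array, the sum was 148 to 286 with ICD and 201.5 and 211 with FoxJ1, and neither of the 2 tested passed (limma). Of 9 neural genes tested, tubb2b.S (-1.43) and ncam1.S (-1.24) fell and 0 rose, with a median of -0.03 and 4 positive differences. The largest of these was sox3.S (1.27, limma adjusted p = 0.0690), where both arrays with FoxJ1 lay above the ICD arrays. The 12 neural genes with a probe set summed to 870 to 2163 with ICD and 1592 and 1457 with FoxJ1. In tissue lysed whole, fewer cells of a type and less RNA per cell cannot be told apart, and the part that these cell types play in the results below was not tested. The arrays also fall into 2 sets by the poly-A control RNAs that are added before labelling. ICD replicate 3 and ICD+FoxJ1 replicate 2 had almost none (medians of 2.95 and 1.90), while the other arrays had medians of 318 to 368.

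With FoxJ1 added, nucleolar genes were lower almost throughout. Of the 57 genes, all of which passed the filter on dim probe sets, 15 fell, 0 rose and 42 did not pass the test (limma, Benjamini-Hochberg adjusted p under 0.05 over 11618 probe sets). That is 26.3% lower, where 2.99% of all probe sets tested were called lower and 4.48% higher. The genes that fell were fbl.S, nop56.L, nop58.S, dkc1.L, nop10.S, bysl.S, utp6.L, gnl3.L, nop2.L, nop53.L, nop16.S, ftsj3.L, rrp1b.L, ncl.S and polr1a.L. Their signal with FoxJ1 was between 26.2% and 50.2% of that with ICD. The fitted difference was negative for 53 of 57 genes (93.0%), against 51.9% of all probe sets tested. The median log2 difference, ICD with FoxJ1 minus ICD, was -0.86 for the nucleolar genes and -0.03 for all probe sets tested, and log2 values here and below are of signal + 16. The median gene had 51.5% of its ICD signal.

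The number of calls depended on single arrays. Without ICD replicate 1, 2 or 3, 17, 18 and 2 genes were called lower, and without ICD+FoxJ1 replicate 1 or 2 the count was 0. In these last fits only 0.275% and 0.293% of all probe sets were called lower, the lone array with FoxJ1 was assumed to vary like the others, and 29 and 30 nucleolar genes were lower at an unadjusted p under 0.05. The number of genes with a negative difference was 53 or 54 of 57 in each of these 5 fits, with medians between -0.99 and -0.77. In 47 genes both arrays with FoxJ1 lay below all ICD arrays, so leaving out 1 array could not change their sign. Of all probe sets, 5.57%, 1.84% and 1.45% were called lower without ICD replicate 1, 2 or 3, against 2.99% with all arrays. With the 2 sets of arrays as a block, 4 genes fell, namely dkc1.L, fbl.S, nop2.L and nop53.L, against 1.82% of all probe sets.

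**Figure D1:**
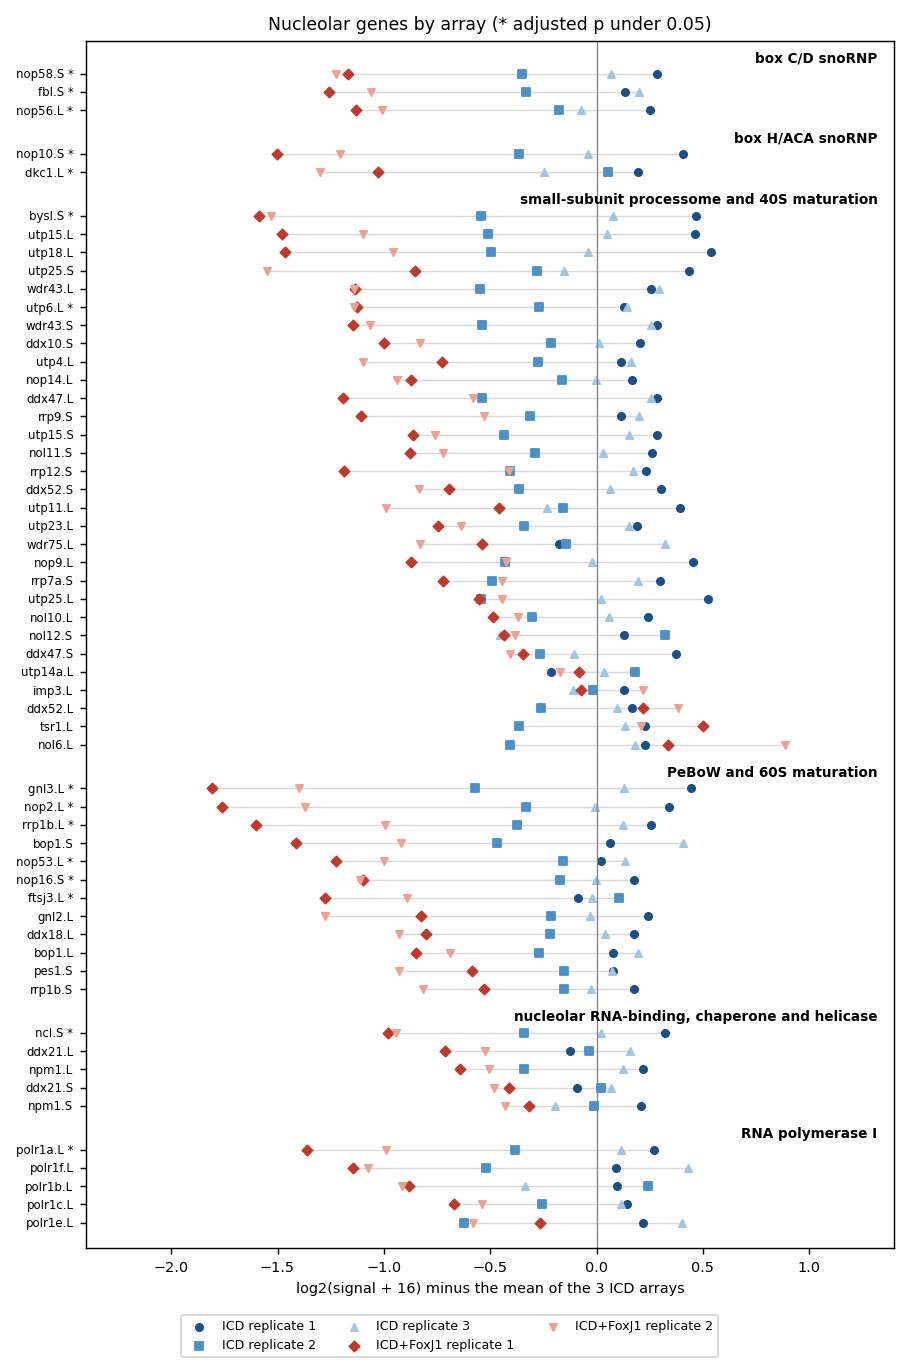
Each row is a gene, grouped by role, and each point is 1 array, plotted as log2(signal + 16) minus the mean of the 3 ICD arrays (blue, ICD replicates 1 to 3; red, ICD+FoxJ1 replicates 1 and 2). In 47 of 57 genes both red points lie to the left of all blue points, in 2 genes both lie to the right, and an asterisk marks the 15 genes past the test.

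In the plot of nucleolar genes by array, both arrays with FoxJ1 lay below all 3 ICD arrays for 47 genes (82.5%) and above them for 2 genes. Over all probe sets tested the shares were 23.0% below and 21.2% above. At an unadjusted p under 0.05, 44 nucleolar genes were lower and 0 higher, against 12.3% of all probe sets in either direction. The same direction was present within each set of arrays, but for those 47 genes this follows from the lack of overlap and is no separate check. The set without poly-A signal holds only ICD replicate 3 and ICD+FoxJ1 replicate 2. Between the arrays with poly-A signal, 54 of 57 genes were lower with FoxJ1 (median -0.87, against -0.01 for all probe sets), and between the arrays without it, 52 of 57 (median -0.91, against -0.03). The sign was negative in both sets for 52 genes and positive in both for 3.

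**Figure D2:**
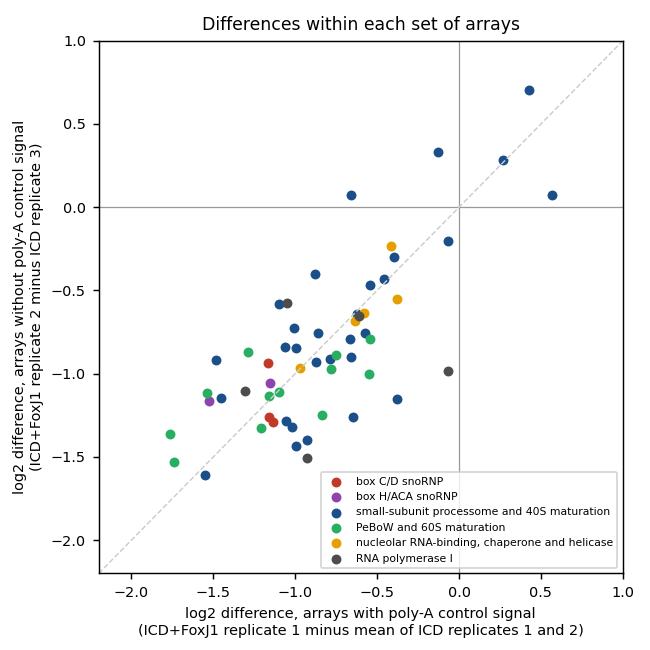
Each point is a nucleolar gene, coloured by role. The horizontal axis is its log2 difference (FoxJ1 minus ICD) among the arrays with poly-A control signal, the vertical axis that among the arrays without it, the axes cross at 0 and the dashed line marks equal values; 52 of 57 genes lie below and left of 0.

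The 3 genes measured for proteins of the box C/D snoRNP, which methylates ribosomal RNA, all fell, with a median log2 difference of -1.16. Fbl.S encodes fibrillarin, the methyltransferase itself. On ICD replicates 1 to 3, in this order throughout, its signals were 1104.5, 794.8 and 1155.5, compared with 410.5 and 473.5 on ICD+FoxJ1 replicates 1 and 2. The lowest ICD array thus stood well above both arrays with FoxJ1, and the log2 difference was -1.16 (SE 0.24, limma adjusted p = 0.0286). Nop56.L, a scaffold protein of the particle, had signals of 1633.7, 1208.3 and 1301.9 with ICD and 616.2 and 672.1 with FoxJ1, a fall by 1.07 (SE 0.21, limma adjusted p = 0.0255). Its partner nop58.S had 1311.8, 838.5 and 1125.3 against 469.1 and 450.2, and fell by 1.20 (SE 0.24, limma adjusted p = 0.0270). In all 3 genes ICD replicate 2 was the lowest of the ICD arrays. With the mean of its 3 probe sets in place of the brightest, fbl.S differed by -0.54 and was not called (limma adjusted p = 0.178).

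Both genes measured for proteins of the box H/ACA snoRNP, which converts uridines of ribosomal RNA to pseudouridine, fell as well. Dkc1.L encodes dyskerin, the pseudouridine synthase, which is also a component of telomerase. It had signals of 1613, 1462.5 and 1184.7 with ICD and 682.5 and 562.3 with FoxJ1, so that the mean went from 1420.1 ± 217 (SD, n = 3) to 622 ± 85.0 (SD, n = 2). The log2 difference was -1.16 (SE 0.22, limma adjusted p = 0.0217). Dkc1.L was 1 of the 2 genes, with nop2.L, still called without ICD replicate 3, but it lost its call without ICD replicate 2. Nop10.S, a small protein bound to dyskerin, was spread more widely among the ICD arrays, at 1616.4, 940.6 and 1181.1, and had 418.6 and 517.4 with FoxJ1. It fell by 1.36 (SE 0.27, limma adjusted p = 0.0253). With the mean of their probe sets, neither gene was called: dkc1.L differed by -0.38 (limma adjusted p = 0.371) and nop10.S by -0.97 (limma adjusted p = 0.0770). The genes gar1 and nhp2 of the same particle had no probe set named here.

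The small-subunit processome and the later factors of the 40S subunit make up the largest group, with 30 genes. Of these, 2 fell, 0 rose and 28 did not pass the test, where 2.99% of all probe sets tested were called lower and 4.48% higher. The difference was negative in 26 of the 30, against 51.9% of all probe sets, with a median of -0.78. Bysl.S encodes bystin, a factor of 40S maturation, and had the smallest signal with FoxJ1 relative to ICD of the 57 genes, 26.2%. Its signals were 230.1, 105.8 and 171.4 with ICD and 43.2 and 45.5 with FoxJ1. The ICD arrays differed from each other by more than 2-fold, yet all lay above the arrays with FoxJ1, and the log2 difference was -1.56 (SE 0.32, limma adjusted p = 0.0292). Utp6.L, a processome protein, had signals of 398.2, 297.4 and 402.2 against 157.6 and 155.7, and fell by 1.13 (SE 0.24, limma adjusted p = 0.0304). Utp15.L, of the processome part that binds the start of the precursor, missed the threshold. It had 498.8, 246.4 and 370.1 with ICD and 118.1 and 158.6 with FoxJ1, a difference of -1.29 (SE 0.32, limma adjusted p = 0.0542).

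A further 22 genes of this group had a negative difference and did not pass the test, and those named in this paragraph were chosen after their values were seen. Their differences ran from -1.21 in utp18.L to -0.13 in utp14a.L, and in 17 of the 22 both arrays with FoxJ1 lay below all ICD arrays. Over all probe sets tested, of either sign, 23.0% did so. Utp18.L, a processome protein, had 452.8, 213.1 and 298.1 with ICD and 101.1 and 150.2 with FoxJ1 (limma adjusted p = 0.0777). Nop14.L, another processome protein, had 116.1, 89.1 and 101.4 against 48.3 and 45.5 (limma adjusted p = 0.0566). For these the groups did not overlap, and the ICD spread was wide in utp18.L and narrow in nop14.L. Utp4.L differed by -0.91, nol11.S by -0.80 and wdr75.L by -0.69, all of the same early processome part as utp15. Rrp9.S, of the U3 snoRNP, differed by -0.82, and the helicase gene ddx10.S by -0.92. Utp25.S had 29.4 and 12 with FoxJ1, the lower of which is under the background level of that array, 25.3.

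The 4 genes with a positive difference all belong to the small-subunit group, and none passed the test; ddx52.L, imp3.L and tsr1.L are named after their values were seen. Nol6.L, a scaffold protein of the processome, had signals of 538, 341 and 521.3 with ICD and 582.6 and 858.8 with FoxJ1, a difference of 0.61 (SE 0.29, limma adjusted p = 0.237). Both arrays with FoxJ1 stood above the ICD arrays, ICD+FoxJ1 replicate 1 by little. Tsr1.L, a late 40S factor related to translational GTPases, had 460.3, 299.8 and 430.2 against 559.2 and 453.2, and here the groups overlapped (0.35, SE 0.26). Imp3.L, of the U3 snoRNP, ran from 454.2 to 540.6 with ICD and had 467.1 and 576.0 with FoxJ1, and its difference of 0.07 (SE 0.22) changed sign between the 2 sets of arrays, -0.13 with poly-A signal and 0.33 without. Ddx52.L, a helicase gene, is described with its homeolog below.

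Of 12 genes for the PeBoW complex and other factors of the 60S subunit, 6 fell and 0 rose, and all 12 lay below ICD on both arrays with FoxJ1, with a median difference of -1.09. Among all probe sets tested, 2.99% were called lower and 23.0% lay below on both arrays. Gnl3.L encodes nucleostemin, a nucleolar GTP-binding protein known from stem and proliferating cells. It had the largest fall of the 57 genes, from 1032.1, 502.4 and 828.5 with ICD to 204.6 and 276.5 with FoxJ1, or by 1.60 (SE 0.33, limma adjusted p = 0.0278). Nop2.L, a methyltransferase of large-subunit ribosomal RNA, went from 953.6, 591.5 and 746.3 to 210 and 279.9 (fell by 1.57, SE 0.27, limma adjusted p = 0.0143), the smallest p-value of the group. In gnl3.L and nop2.L, ICD replicate 1 was highest and ICD replicate 2 lowest among the ICD arrays.

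The other 60S factors that fell did so by 1.08 to 1.30. Nop16.S had 713.4, 557.7 and 628.9 with ICD and 285.7 and 282.7 with FoxJ1, a fall by 1.11 (SE 0.22, limma adjusted p = 0.0237). Nop53.L, a factor of 5.8S ribosomal RNA processing, had 748.4, 658.2 and 810.4 against 305.8 and 360.6, and also fell by 1.11 (SE 0.22, limma adjusted p = 0.0231). Both had narrow groups that stood far apart. Ftsj3.L, a ribosomal RNA methyltransferase, had 410.6, 471.5 and 430.8 against 171.1 and 228.4 (fell by 1.08, SE 0.23, limma adjusted p = 0.0318), and here ICD replicate 2 was the highest of the ICD arrays. Rrp1b.L, a protein of 60S precursors, had 518.4, 329.4 and 472.1 against 131.6 and 209.2 (fell by 1.30, SE 0.30, limma adjusted p = 0.0402). Of PeBoW itself, which holds Pes1, Bop1 and Wdr12, the genes pes1.S (-0.76), bop1.L (-0.77) and bop1.S (-1.17) were measured, chosen here after their values were seen. Pes1.S had 590.4, 501.3 and 588.4 with ICD and 367 and 285.8 with FoxJ1, and none of the 3 genes passed the test (limma adjusted p = 0.0885, 0.103 and 0.0684).

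Genes for proteins that make up the body of the nucleolus formed a further group. Of 5 genes for nucleolin, nucleophosmin and the helicase Ddx21, 1 fell and 4 did not pass, with a median of -0.58, although all 5 had both arrays with FoxJ1 below the ICD arrays. Among all probe sets tested, 2.99% were called lower and 23.0% lay below on both arrays. Ncl.S, nucleolin, which binds ribosomal RNA precursors, had signals of 3786.2, 2385.7 and 3075.6 with ICD and 1526.7 and 1566.7 with FoxJ1, and fell by 0.96 (SE 0.23, limma adjusted p = 0.0450). Npm1, nucleophosmin, is a histone and ribosome chaperone that forms the outer layer of the nucleolus. Npm1.L had 2546.1, 1720.7 and 2386.5 with ICD and 1394.4 and 1533.7 with FoxJ1, a difference of -0.58 (SE 0.22, limma adjusted p = 0.167). Its chosen probe set is of a type that can bind related RNAs. Npm1.S differed by -0.37 (SE 0.20). Ddx21.L, a helicase linked to transcription of ribosomal RNA, had 1581.2, 1684.1 and 1924.8 against 1046.8 and 1193.6 (-0.62, SE 0.19, limma adjusted p = 0.103), and ddx21.S differed by -0.45 (SE 0.19).

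Of 5 subunit genes of RNA polymerase I, 1 fell, 0 rose and 4 did not pass, with a median of -0.90. Among all probe sets tested, 2.99% were called lower and 4.48% higher. Polr1a.L encodes the largest, catalytic subunit. Its signals were 230.8, 140.6 and 205.2 with ICD and 63.5 and 87.1 with FoxJ1, a fall by 1.18 (SE 0.28, limma adjusted p = 0.0483), the p-value nearest to the threshold among the calls. Polr1b.L, whose protein forms the catalytic centre with it, had 151.8, 170.1 and 108.4 against 69.4 and 67.5 (-0.90, SE 0.26, limma adjusted p = 0.0835). Polr1f.L, of the stalk, had 167.8, 104.5 and 216.7 against 62.1 and 66.0 (-1.11, SE 0.31, limma adjusted p = 0.0776). In these 3 genes, and in polr1c.L, the groups did not overlap, where 23.0% of all probe sets tested lay below on both arrays with FoxJ1. Polr1c.L, a subunit that RNA polymerase III also uses, had 436.3, 327.4 and 428.7 against 241.6 and 266.5 (-0.60, SE 0.23, limma adjusted p = 0.163). Polr1e.L was the exception, since ICD replicate 2, at 109.6, lay below both arrays with FoxJ1, at 144.5 and 113.0, while ICD replicates 1 and 3 had 209 and 239.4. Its difference was -0.43 (SE 0.34, limma adjusted p = 0.488), and it is named after its value was seen.

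Both homeologs were measured for 9 names, and in 8 of them the L and the S copy both had a negative difference; names in this paragraph other than ddx21, npm1, rrp1b and utp15 were chosen after their values were seen. The copies of wdr43, a processome gene, were alike, with -1.14 (SE 0.31) for L and -1.11 (SE 0.31) for S. Rrp1b differed by -1.30 in L and -0.67 in S, and the dim S copy had signals of 61.6, 45.8 and 51.5 with ICD and 31.5 and 23.0 with FoxJ1, the last under the background level of its array. Utp15 differed by -1.29 in L and -0.81 (SE 0.28) in S. The pair that parted was ddx52, a helicase gene of small-subunit assembly. Ddx52.L had 207.8, 150.3 and 197.5 with ICD and 216 and 244.3 with FoxJ1 (0.30, SE 0.24), whereas ddx52.S had 223.3, 134.5 and 186.4 against 103.9 and 92.6 (-0.76, SE 0.27). Neither copy passed the test (limma adjusted p = 0.490 and 0.138), and the gap of 1.07 between them was not tested.

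**Figure D3:**
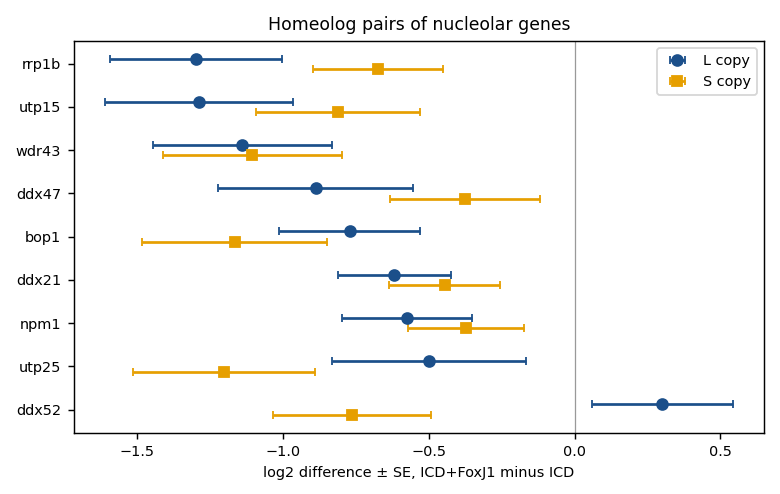
Log2 differences (FoxJ1 minus ICD) with standard errors for the 9 names with both homeologs measured, circles for the L copy and squares for the S copy. In 8 names both copies lie left of 0, and in ddx52 the L copy lies at 0.30 and the S copy at -0.76.

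The ICD arrays also differed among themselves in these genes. ICD replicate 1 was the highest of the 3 ICD arrays for 40 of 57 genes (70.2%), against 35.5% of all probe sets tested, and ICD replicate 2 was the lowest for 46 genes (80.7%), against 28.5%. The median over genes of the deviation from the ICD mean was 0.22, -0.30 and 0.07 (log2) for the ICD replicates in order. For the arrays with FoxJ1 it was -0.87 and -0.89, so the lowest ICD array still lay above both. ICD replicate 1 stood apart in other lists too: its neural genes summed to 870, against 2163 and 2153 on the other ICD arrays, and its multiciliated cell genes to 143, against 474 and 741. The ratio of 3′ to 5′ signal of control genes is meant as a measure of RNA integrity. For beta actin it was 0.245, 0.217 and 0.181 with ICD and 0.205 and 0.122 with FoxJ1. For gapdh it was far higher, from 2.75 on ICD replicate 1 to 3.87 on ICD+FoxJ1 replicate 2, with 2.76 on ICD+FoxJ1 replicate 1. The gapdh ratio was highest on ICD+FoxJ1 replicate 2 and ICD replicate 2. The groups overlapped for both controls, but the controls differed in level, so they do not settle RNA integrity. The part these differences play was not tested.

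Ribosome biogenesis factors that the symbol rule did not take were lower as well. From a list of such factors, including the exosome, nucleolar helicases, Pol I initiation factors and late 40S and 60S factors, 86 genes were tested, of which 6 fell, 0 rose and 80 did not pass. Of the 86 differences 80 were negative and 6 positive, and the median was -0.62. In 60 genes both arrays with FoxJ1 lay below the ICD arrays, and in 4 above them. At an unadjusted p under 0.05 (limma), 46 were lower and 2 higher, namely tex10.S (0.95) and riok3.L (0.73), which are outside the naming rule. Of all probe sets tested, 2.99% were called lower and 4.48% higher, and 51.9% had a negative difference. On both arrays 23.0% lay below and 21.2% above, and 12.3% had an unadjusted p under 0.05 (limma) in either direction. Wdr36.S, a processome gene, had 294.1, 204.5 and 231.1 with ICD and 91 and 103.9 with FoxJ1 (fell by 1.18, SE 0.25, limma adjusted p = 0.0309). Sbds.S, which helps to release a factor from new 60S subunits, had 110, 104.6 and 97.2 against 46.7 and 36.0 (fell by 1.07, SE 0.23, limma adjusted p = 0.0317). Rpf2.S, of 5S ribonucleoprotein assembly, fell by 1.16, and the exosome gene exosc2.S by 1.33. The nucleolar helicase genes ddx27.L and ddx54.L, outside the naming rule, fell by 1.38 and 1.18. Here 0 fell without ICD replicate 3 or either array with FoxJ1, while 11 fell without ICD replicate 1. With the 2 sets of arrays as a block 0 fell, with quantile normalization 10, and with no filter on dim probe sets 2.

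For comparison with RNA polymerase I, subunits of the other nuclear RNA polymerases were examined. Of 14 genes for RNA polymerase II and III subunits tested, 0 passed the test with limma, 3 were lower and 0 higher at an unadjusted p under 0.05, and the median was -0.11. The 3 were polr2k.L (-0.84, SE 0.23, limma adjusted p = 0.0701), polr2e.S (-0.63) and polr2i.S (-0.50), and the next was polr2h.L (-0.76). The 9 genes named polr2 had a median of -0.45, with 7 of 9 negative and both arrays with FoxJ1 below all ICD arrays in 5 of 9. For all probe sets tested these shares were 51.9% and 23.0%. The 4 genes named polr3 had a median of 0.09, and the remaining gene, crcp.S, a Pol III subunit gene, differed by -0.29. The products of polr2k, polr2e and polr2h are subunits that RNA polymerase I shares. So is that of polr2f, and polr2f.S, chosen after its values were seen, had 269.5, 221.2 and 282.6 against 228.9 and 360.0 (0.16, SE 0.27). Polr2k.L had narrow groups, at 151.5, 145.8 and 152.6 for ICD against 86.5 and 67.8. A difference between these lists was not tested.

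**Figure D4:**
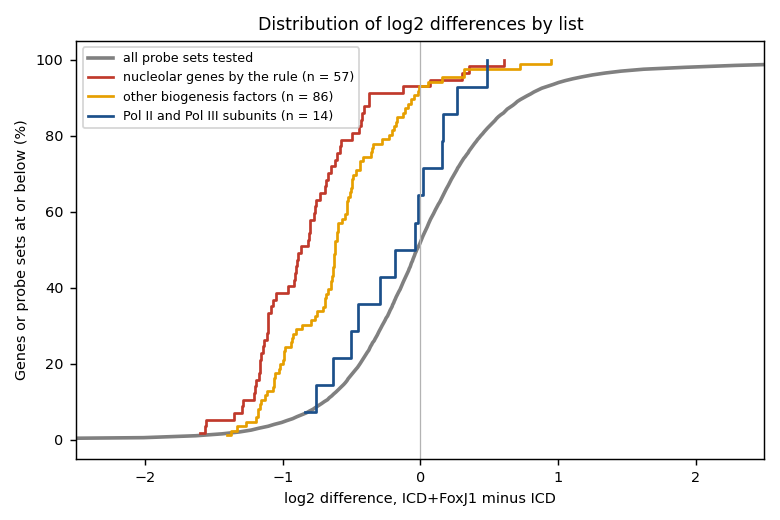
Cumulative share, in percent, of genes or probe sets at or below each log2 difference (FoxJ1 minus ICD) for the 57 nucleolar genes, 86 other biogenesis factors, 14 RNA polymerase II and III subunits, and all 11618 probe sets tested. The medians are -0.86, -0.62, -0.11 and -0.03.

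Myc family factors are known to drive ribosome biogenesis genes in many animals. Of 10 genes for Myc factors and their partners tested, 1 fell and 0 rose, where 2.99% of all probe sets tested were called lower and 4.48% higher. The median was -0.15, but it was 0.12 between the arrays with poly-A signal and -0.51 between those without. ICD replicate 1 was the lowest ICD array for 9 of the 10 genes, against 42.2% of all probe sets. Mycl.S, an L-Myc gene, had signals of 374.4, 302.7 and 496.0 with ICD and 88.6 and 102.1 with FoxJ1, a fall by 1.85 (SE 0.27, limma adjusted p = 0.00755). Its groups stood far apart, whereas mycl.L had 18.5, 49.2 and 91.2 against 20.5 and 26.0 and did not pass (-0.67, SE 0.43). The ICD arrays of mycl.L were spread widely, with ICD replicate 1 under the background level of that array, 28.4. Both arrays with FoxJ1 lay little above theirs, 16.9 and 25.3. Mycn.L differed by -0.28 (SE 0.36), and mxi1.L, a Myc antagonist, by 0.72 (SE 0.26, limma adjusted p = 0.147). Myc.S, outside the naming rule, had 310, 747.6 and 814.6 with ICD and 635.2 and 339.7 with FoxJ1, so that its groups overlapped widely. The part of Myc factors in the lower nucleolar signals was not tested.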

How the data were processed

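Affymetrix arrays measured 3 samples of the ICD group and 2 of the ICD+FoxJ1 group, as the titles group them. The authors deposited MAS5 signal intensities, according to the submitters' processing notes, at 1 value per probe set on a linear scale, with no MAS5 version or settings stated. They were compared as log2(signal + 16). The table held 15611 probe sets, including 120 controls, which were left out. The 25% with the lowest mean log2 signal were removed, leaving 11618. A linear model was fitted with limma 3.58.1 (R 4.3.3, lmFit and eBayes with trend), with two-sided tests and Benjamini-Hochberg adjustment at 0.05. Symbols came from GEO's platform annotation. Gene IDs of all 57 genes were found in RefSeq's table of assembly Xenopus_laevis_v10.1 under the same symbols. Background was, per array, the highest of 20 control probe sets foreign to frog RNA. The fit was also run on simulated data with independent normal noise. These held no sets of arrays and no deviating array, so they do not test the fit against either. Named were all genes past the test, the 3 with the smallest p and the brightest of each role, their homeologs, and up to 4 genes of other lists. Genes and lists were chosen with earlier results of these data known. Sequences were not used here.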

Additional observations from a re-analysis of the deposited data

How the results depend on the processing

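Under 19 alternatives the sign of the median over the 57 nucleolar genes stayed negative (-0.99 to -0.68), no gene was called higher, and 53 or 54 were lower (49 of the 53 tested when 50% of probe sets were left out). The count called lower, 15, became 27 with array weights, 4 with the 2 poly-A control sets as a block, 0 with only the 3 poly-A positive arrays and 0 with the replicate block (replicates 1 and 2), and ranged from 0 to 18 with 1 array left out. All other settings gave 12 to 17. The share of all probe sets called lower moved too, from 2.99% in the main fit to 6.58% with array weights. It was 1.82% with the 2 poly-A control sets as a block and 0.611% with the replicate block. The 3 poly-A positive arrays include only 1 array with FoxJ1, and few probe sets of any kind were called lower on them. With quantile normalization it was 3.61%, and with no filter 1.67%. For the other biogenesis factors the count, 6, became 21 with array weights, 10 with quantile normalization, 2 with no filter, and 0 with the 2 poly-A control sets as a block, for the 3 poly-A positive arrays or with the replicate block, and ranged from 0 to 11 with 1 array left out. For the Pol II and Pol III subunits, 1 was lower with array weights. Imp3.L, at 0.07, turned to -0.13 on the 3 poly-A positive arrays and ranged from -0.0734 to 0.2198 with 1 array left out, turning negative without ICD+FoxJ1 replicate 2. The labels do not say whether same-numbered replicates belong together. Deviations of same-numbered arrays correlated across probe sets at -0.06 for replicate 1 and -0.32 for replicate 2. Deviations of the 2 arrays with FoxJ1 mirror each other, and these arrays lie in different poly-A control sets, so the correlations cannot settle pairing. With 2 arrays with FoxJ1, calls rest on a variance shared across probe sets, and signals near the background level limit utp25.S and rrp1b.S.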

Other observations

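Several probe sets were present for 12 of the 57 genes, and in 2 of these the probe sets tested had opposite signs. A dim probe set for fbl.S, not used to represent the gene, had signals of 58.3, 58.7 and 69.3 with ICD and 103.5 and 109.3 with FoxJ1, differing by 0.65 on the log2 scale (SE 0.22, limma adjusted p = 0.126), while both brighter fbl.S probe sets fell, by 1.16 and 1.11. For dkc1.L the brightest probe set fell by 1.16, and dimmer ones differed by -0.21 and 0.22. The 4 probe sets for ddx18.L, a 60S helicase gene, all had a negative difference, from -1.03 to -0.61, and none passed the test. For nop10.S the second probe set differed by -0.58 (SE 0.28, limma adjusted p = 0.254). When the log2 signals of all probe sets of a gene were averaged, 12 of the 57 genes were called lower, and fbl.S, dkc1.L and nop10.S lost their calls. The fbl.S, dkc1.L and ddx18.L probe sets were chosen after their values were seen.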
